A study of Carassius auratus with 6 samples.

Results

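The retinoid visual cycle was followed through 10 genes, rpe65, lrat, rdh5, rlbp1, rgr, stra6, rdh8, rdh12, abca4 and rbp3, in RNA sequencing of goldfish (Carassius auratus) eyeballs. A gene model was taken as a member when the gene name of its best Swiss-Prot match was one of these names, alone or followed by a, b or -like. This gave 36 of the 56251 gene models, under 9 of the 10 names. No model carried the name rdh5. There were 14 models of the pigment epithelium step (rpe65, lrat, rlbp1, rgr and stra6) and 22 of the photoreceptor step (rdh8, rdh12, abca4 and rbp3).

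The study compared goldfish with normal eyes and goldfish with celestial eyes, a breed whose eyes are turned upward, in 3 libraries titled C and 3 titled R. Fish were 1 winter year old, and each group came from a single farm, so farm and eye type cannot be told apart. The labels disagree on the letters: the sample labels call C normal and R celestial-eyed, and the series' design text says the reverse, so every direction below is C against R and the eye type of each letter is not assigned. No treatment is given, and it is not said which fish gave which library, so the p-values here reflect only how far these libraries spread, which may be technical. The libraries held 9444623 to 11317200 reads counted in genes. On log2(FPKM + 1), libraries sharing a letter correlated at 0.946 to 0.966, and C libraries correlated with R libraries at 0.862 to 0.884.

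Light turns the 11-cis retinal of a visual pigment into the all-trans form, and vision lasts only while 11-cis retinal is made again. Photoreceptors reduce all-trans retinal to retinol, which passes to the pigment epithelium behind the retina, where it is stored as an ester, isomerized, oxidized and sent back. Cones can also be supplied through Mueller glia, the supporting cells of the retina, which share some of these proteins. Whole eyeballs were measured in bulk, so fewer cells of a type and less RNA per cell cannot be told apart.

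The isomerase gene rose in C, the esterifying enzyme and a photoreceptor retinal reductase fell in C, and the other 6 names did not pass the test as sums. FPKM, the deposited unit, is reads per kilobase of gene, scaled to the reads of the library, and copies were summed per name because goldfish carry many duplicated genes. A sum may still join different genes. The tested models of rdh8, rdh12, rgr and abca4 are not all in the same eggNOG orthologous group. Of the 9 summed names, rpe65 was higher and lrat and rdh8 were lower in C at an adjusted p under 0.05 (limma on log2(sum of FPKM + 1), Benjamini-Hochberg adjustment over 12592 names), where 19.2% of all names were called, 7.93% higher and 11.2% lower. For 4 of the 9 names the groups did not overlap (all C libraries above, or all below, all R libraries), against 41.8% of all names tested. Both shares are read against that background, since the C and R libraries differed across much of the table.

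**Figure D1:**
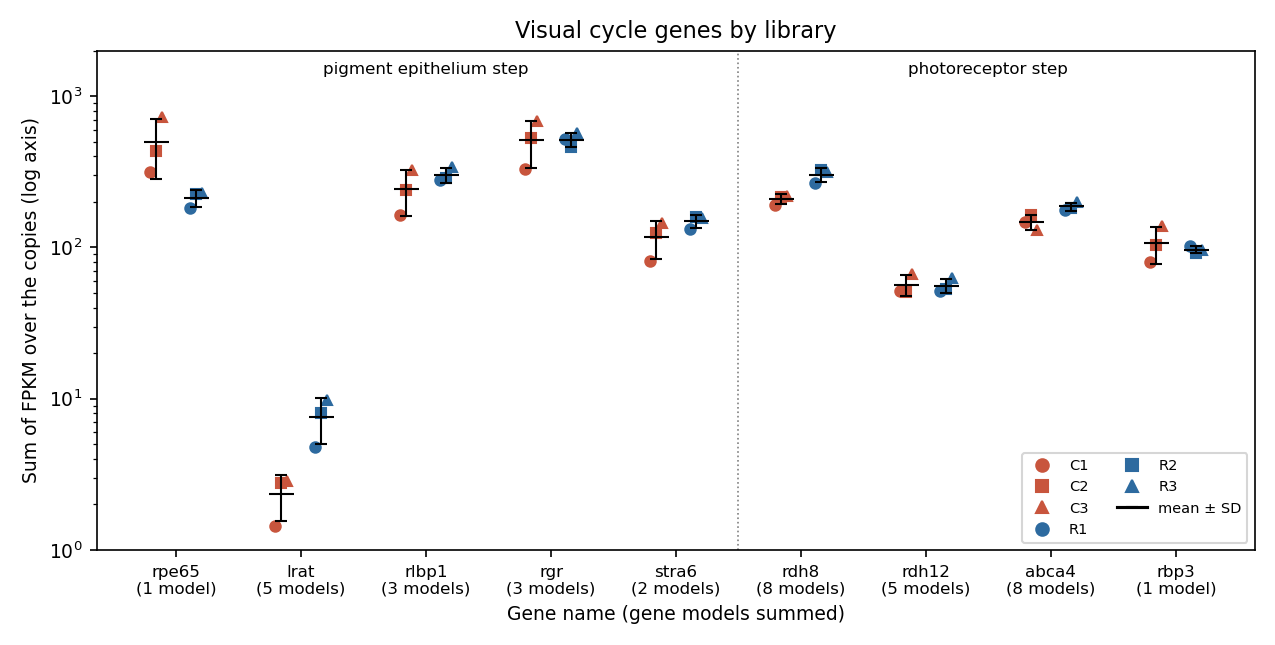
Sum of FPKM over all copies of each name (log axis) in each library, C in red and R in blue, with the mean and SD of 3 libraries as black bars. The C libraries lie above the R libraries for rpe65 and below them for lrat, rdh8 and abca4, and the groups overlap for the other names.

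Among single copies, 27 of the 36 reached the minimum for testing (3 or more of the 6 libraries with 1 FPKM or more). Of these, 3 were higher and 7 lower in C (limma, adjusted over all 33907 models tested), where 8.67% of all models were higher, 11.6% were lower and 20.2% were called in all. The 7 include an abca4 copy on chromosome 43 that met the minimum through the R libraries alone, so its call carries no weight. With the median log2 ratio of all models set to 0, which removes a shift of -0.09, the split was 3 higher and 3 lower. It was 3 higher and 11 lower with quantile normalization, and 3 higher and 9 lower with limma-voom on recovered reads. The split thus depended on the scaling. The median log2 fold change of the tested copies was -0.24, and over all models it was -0.09. The groups did not overlap for 14 of the 27 copies, against 41.4% of all models. The other 9 copies stayed at or under 2.47 FPKM in every library.

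**Figure D2:**
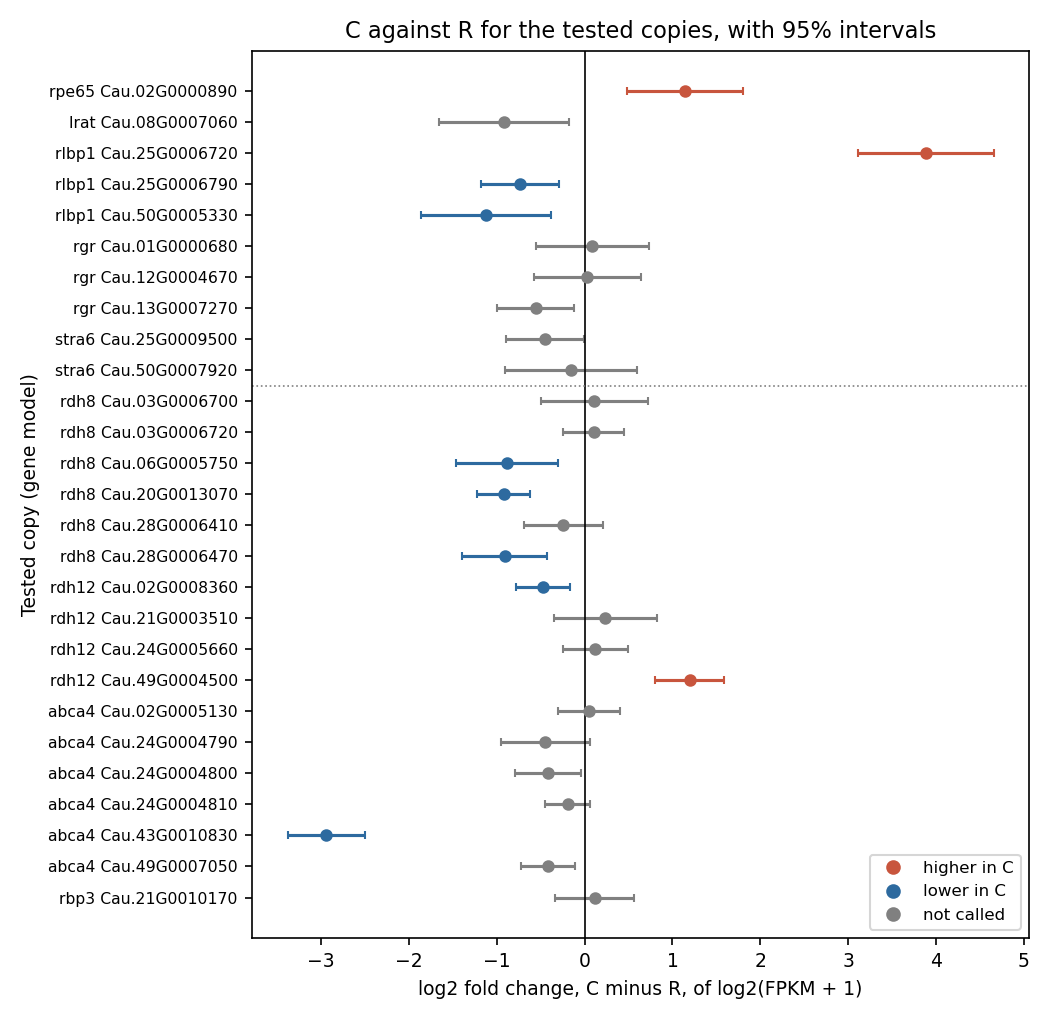
Log2 fold change (C minus R, on log2(FPKM + 1)) of the 27 tested copies with 95% intervals from limma, pigment epithelium step above the dotted line and photoreceptor step below it. The 3 red copies, rpe65, an rlbp1 copy and an rdh12 copy, lie to the right of 0, and the 7 blue copies, led by an abca4 copy at -2.94, lie to the left. That abca4 copy met the minimum for testing through the R libraries alone.

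The gene rpe65 encodes the isomerohydrolase that turns all-trans retinyl esters into 11-cis retinol in the pigment epithelium. Its only model, Cau.02G0000890 (goldfish symbol rpe65a, chromosome 2, 1959069 to 1964919, minus strand; the files do not name the assembly), had 318 FPKM in C1, 437 in C2 and 730 in C3, and 181 in R1, 226 in R2 and 229 in R3. Every C library was above every R library, and C3 was highest by a wide margin. The means were 495 ± 212 FPKM in C against 212 ± 26.7 in R (each ± SD of n = 3), a ratio of 2.33. The fitted log2 fold change was 1.14 (SE 0.28, adjusted p = 0.0284 in limma). Without C3 the log2 difference was 0.82, and the call still held. Leaving out R1, R2 or R3 ended the call, with limma adjusted p-values of 0.0947, 0.0790 and 0.0648.

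Summed markers of the pigment epithelium were also higher in every C library. Their list, which contains none of the visual cycle genes, had models for 16 of its 17 names (none for slc16a8). Its summed level was 655 to 873 FPKM in C and 567 to 585 FPKM in R. Of 38 models tested, 10 rose and 1 fell in C (28.9% called, median log2 fold change 0.40, against 20.2% and -0.09 over all models). No name with a model was at 0. Its most abundant models were those of the melanin enzymes dct, at 98.6 ± 31.0 FPKM in C against 161 ± 7.44 in R, and tyrp1, a copy of which had 118 ± 41.4 in C and 61.8 ± 3.89 in R. Melanin genes are also used by pigment cells outside the retina. Per 100 FPKM of these markers, rpe65 stood at 48.5 in C1, 50.1 in C2 and 84.8 in C3, and at 31.4 in R1, 39.8 in R2 and 39.2 in R3. The groups did not overlap on that scale either, and the part of the markers in the rpe65 result was not tested further.

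The gene lrat encodes lecithin retinol acyltransferase, which makes the retinyl esters that the isomerase uses. It was the lowest of the names, with sums over 5 models of 1.43, 2.77 and 2.84 FPKM in C1, C2 and C3, and of 4.80, 8.05 and 9.88 FPKM in R1, R2 and R3. Even the highest C library was under the lowest R library. The means were 2.35 ± 0.795 FPKM in C against 7.57 ± 2.57 in R, and the log2 fold change of the sum was -1.34 (SE 0.27, adjusted p = 0.0137 in limma). The call ended without R2 (adjusted p = 0.0594) and without R3 (0.0514).

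No single lrat copy was called. The most abundant, Cau.08G0007060 (chromosome 8, 14112522 to 14114109, plus strand), had 1.90 ± 0.967 FPKM in C against 4.39 ± 1.42 in R (adjusted p = 0.0804 in limma). A copy on chromosome 1, Cau.01G0005940, had no read in C while R gave 30 reads, which is at least 9.58-fold lower in C against a floor of 3 reads over the group. A copy on chromosome 26, Cau.26G0001840, had no read in C and 25 in R, at least 7.98-fold lower in C. R3 alone held 18 of those 25 reads, and without it the bound was 3.48-fold. Both copies were below the minimum for testing. These bounds allow only for counting error in C and take the R reads as exact. Cau.26G0001840 is matched to the same RefSeq goldfish gene as the chromosome 8 copy, and Cau.01G0005940 to the same one as Cau.01G0005890. How reads were divided between such copies was not checked. The remaining copies, Cau.01G0005890 and Cau.26G0002970, had 5 and 7 reads in C and 10 and 6 in R, and the second of them is described in the files as a phospholipase A and acyltransferase.

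The gene rlbp1 encodes CRALBP, the carrier of 11-cis retinoids in pigment epithelium and Mueller glia. Its total did not pass the test, but its copies parted. The sums were 163, 241 and 325 FPKM in C1, C2 and C3 and 279, 286 and 340 in R1, R2 and R3. The groups overlapped, with a log2 fold change of -0.36 (95% interval -0.89 to 0.16, adjusted p = 0.294 in limma), and without C3 it was -0.60 (adjusted p = 0.0474).

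A pair of rlbp1 copies lies on chromosome 25, both on the plus strand and both with a gene length of 912 bases, and both are matched to the same RefSeq goldfish gene. The first, Cau.25G0006720 (14494092 to 14496215), had 60.1, 53.0 and 131 FPKM in C1, C2 and C3 and 3.01, 5.04 and 4.65 FPKM in R1, R2 and R3. Every C library was far above every R library, a mean ratio of 19.3, with 27 to 48 reads in each R library and 474 to 1321 in each C library. The fitted log2 fold change was 3.88 (SE 0.33, adjusted p = 0.000415 in limma), and the call held under every alternative tried.

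The other copy of the pair, Cau.25G0006790 (14546286 to 14548398), had 59.2, 99.1 and 80.8 FPKM in C1, C2 and C3 and 121, 128 and 143 FPKM in R1, R2 and R3. It fell in C by 0.73 on the log2 scale (SE 0.19, adjusted p = 0.0332 in limma). Over the pair together the groups overlapped, at 161 ± 47.1 FPKM in C against 135 ± 11.9 in R. The first copy made up 34.9% to 61.9% of the pair in C and 2.43% to 3.78% in R. Reads of near-identical copies may be divided between gene models, and how the counting divided them was not checked.

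The third copy, Cau.50G0005330 on chromosome 50 (10101241 to 10103466, plus strand), had 43.4, 88.9 and 112 FPKM in C1, C2 and C3 and 155, 153 and 192 in R1, R2 and R3. Its log2 difference was -1.12 (SE 0.32, adjusted p = 0.0438 in limma), with all C libraries below all R libraries. Calls of both falling copies were lost under some leave-outs of a single library, while their log2 differences stayed negative. That of Cau.25G0006790 ended without any library but C2 (adjusted p = 0.0579 to 0.0999), and that of Cau.50G0005330 without C2, R1, R2 or R3 (adjusted p = 0.0563 to 0.127). With 1 library left out, the differences lay between -0.905 and -0.539 for the first and between -1.401 and -0.726 for the second. Leaving out an R library also lowered the called share of all models, from 20.2% to between 10.5% and 13.3%.

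**Figure D3:**
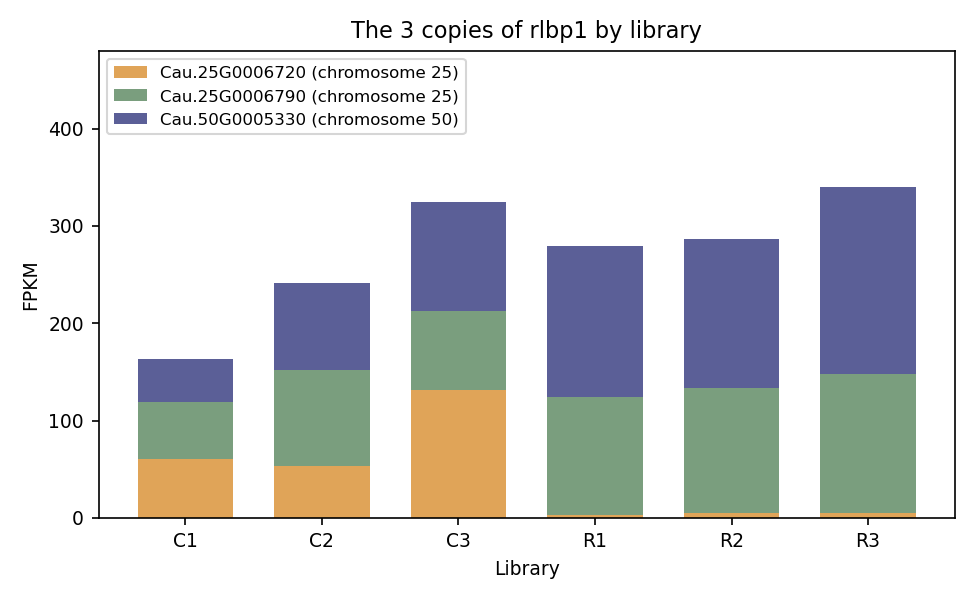
FPKM of the 3 copies of rlbp1 in each library, stacked, so that the height of a bar is the sum per library. The first chromosome 25 copy is 53.0 to 131 FPKM in the C libraries and 3.01 to 5.04 in the R libraries, while the bars overlap in height between the groups.

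The gene rgr encodes an opsin of pigment epithelium and Mueller glia that converts bound all-trans retinal to the 11-cis form in light. Summed over its 3 copies it stood at 514 ± 176 FPKM in C against 516 ± 55.2 in R, and the groups overlapped (log2 fold change -0.06, 95% interval -0.61 to 0.49, adjusted p = 0.881 in limma). Copies on chromosomes 1 and 12 overlapped between groups, with log2 fold changes of 0.09 and 0.03. The copy with the goldfish symbol rgra, Cau.13G0007270 (chromosome 13, 19072608 to 19077554, minus strand), had 66.4 to 109 FPKM in C and 117 to 141 in R. Those ranges do not meet, but the difference missed the threshold (log2 fold change -0.56, SE 0.19, adjusted p = 0.0748 in limma).

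The gene stra6 encodes the receptor that takes up retinol from its blood carrier. Its sums were 117 ± 33.2 FPKM in C against 150 ± 14.6 in R, with a log2 fold change of -0.39 (95% interval -0.86 to 0.09, adjusted p = 0.219 in limma). The copy on chromosome 25 gave most of the reads, with 89.1 ± 22.3 FPKM in C against 120.1 ± 10.6 in R, and the copy on chromosome 50 had 28.3 ± 11.8 and 29.7 ± 5.36. Neither copy was called.

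Within C, all 5 names of the pigment epithelium step were lowest in C1 and highest in C3. That order was not particular to the step. The sums of rdh8, rbp3, photoreceptor markers and Mueller glia markers had it too, while those of rdh12, abca4 and pigment epithelium markers did not. The summed step was 895, 1332 and 1887 FPKM in C1, C2 and C3 and 1117, 1140 and 1305 FPKM in R1, R2 and R3, so the groups overlapped, and the spread within C was wider than the difference between the means. The gene rpe65 took 32.8% to 38.7% of the step in C and 16.2% to 19.8% in R. Without rpe65 the step was 876 ± 290 FPKM in C against 975 ± 87.9 in R. Per 100 FPKM of pigment epithelium markers, the step with rpe65 stood at 137 to 219 in C and 194 to 223 in R. The groups overlapped on that scale, and the mean was lower in C. These sums are descriptions of the chosen genes and carry no test.

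In the photoreceptors, rdh8 encodes an outer segment dehydrogenase that reduces all-trans retinal to retinol. Its sum over 8 models was 192, 217 and 221 FPKM in C1, C2 and C3 and 267, 324 and 317 in R1, R2 and R3. The C libraries were all below the R libraries, with means of 210 ± 15.5 and 303 ± 31.5 FPKM and a log2 fold change of -0.53 (SE 0.12, adjusted p = 0.0192 in limma). The call ended without C1 (adjusted p = 0.0699), R2 (0.0872) or R3 (0.0592). The tested rdh8 models are in different eggNOG orthologous groups, and its 3 called copies are each in a different group. The rdh8 sum may therefore join different genes.

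The fall of rdh8 lay in some of its copies. The most abundant, Cau.28G0006470 (chromosome 28, 13588719 to 13594249, minus strand), had 55.4, 92.5 and 90.0 FPKM in C1, C2 and C3 and 129, 159 and 151 FPKM in R1, R2 and R3. It fell by 0.91 on the log2 scale (SE 0.21, adjusted p = 0.0215 in limma), a call lost without R2 (0.0834) or R3 (0.0653). The files place it in the same eggNOG orthologous group as Cau.03G0006720 on chromosome 3 (14078704 to 14084784, minus strand), which had 68.5 ± 11.6 FPKM in C against 63.4 ± 5.95 in R and was not called. The chromosome 28 copy was 48.5% to 58.6% of that pair in C and 68.3% to 71.6% in R.

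A low copy of rdh8, Cau.20G0013070 (chromosome 20, 29106013 to 29120689, plus strand), had 5.09, 4.70 and 5.56 FPKM in C1, C2 and C3 and 9.52, 10.8 and 11.4 in R1, R2 and R3. It fell by 0.92 (SE 0.13, adjusted p = 0.00318 in limma), and this call held under every alternative. The copy Cau.06G0005750 on chromosome 6 had 33.1, 21.2 and 19.0 FPKM in C1, C2 and C3 and 33.1, 50.3 and 53.6 in R1, R2 and R3. C1 and R1 were level there, and the log2 fold change of -0.88 (SE 0.25, adjusted p = 0.0426 in limma) lost its call without C2, C3, R2 or R3 (adjusted p = 0.0923 to 0.136). The copy Cau.28G0006410 had 30.5 ± 7.77 FPKM in C against 35.7 ± 4.57 in R and was not called. Its counterpart of the same eggNOG group on chromosome 3 stayed near 1 FPKM, at 1.02 ± 0.56 in C and 0.826 ± 0.282 in R. Of the remaining copies, the model with the goldfish symbol rdh8b had 28 reads in C and 18 in R, and a model on chromosome 1 had 2 reads in C and 0 in R.

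The gene rdh12 encodes a second photoreceptor reductase, of the inner segment. Its sums were level, at 56.6 ± 8.97 FPKM in C against 56.0 ± 5.87 in R (log2 fold change 0.01, 95% interval -0.30 to 0.33). The files place the tested rdh12 models in different eggNOG orthologous groups, so the sum may join different genes. Its called models went in opposite directions. The copy Cau.49G0004500 (chromosome 49, 14208443 to 14212343, minus strand) had 12.7, 12.04 and 14.8 FPKM in C1, C2 and C3 and 5.003, 4.18 and 6.57 in R1, R2 and R3. Every C library was above every R library, and it rose by 1.19 on the log2 scale (SE 0.17, adjusted p = 0.00314 in limma) under every alternative. The most abundant copy, Cau.02G0008360 (chromosome 2, 19647586 to 19659103, plus strand), had 24.1, 24.8 and 26.7 FPKM in C1, C2 and C3 and 32.4, 32.7 and 41.5 in R1, R2 and R3. Its log2 difference was -0.47 (SE 0.13, adjusted p = 0.0422 in limma), a call that ended without any 1 of the 6 libraries (adjusted p = 0.0505 to 0.118). The copies on chromosomes 21 and 24 overlapped between groups, at 11.2 ± 4.91 and 7.04 ± 1.43 FPKM in C and 8.86 ± 0.775 and 6.32 ± 0.525 in R, and the copy on chromosome 46 had 1 read in C.

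The gene abca4 encodes the disc membrane transporter that clears retinal bound to phospholipid. Its sums over 8 models were 146, 164 and 131 FPKM in C1, C2 and C3 and 178, 183 and 200 in R1, R2 and R3, without overlap. The difference missed the threshold (log2 fold change -0.34, 95% interval -0.61 to -0.08, adjusted p = 0.0724 in limma). Most of this sum came from 3 models that follow each other on chromosome 24 (19147913 to 19178197, plus strand), 43 and 588 bases apart and matched to the same RefSeq goldfish gene. Joined as a single gene by their reads and summed length, they stood at 49.4 ± 3.25 FPKM in C against 58.8 ± 2.73 in R. The abca4 sum and the photoreceptor step add the 3 as separate models. If they are pieces of a single gene, the levels of that sum and step are overstated. None of the 3 was called, nor were the copies on chromosomes 2 (Cau.02G0005130, 18.3 ± 3.29 and 17.4 ± 1.52 FPKM) and 49 (10.3 ± 0.809 and 14.2 ± 1.84 FPKM).

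A short abca4 model on chromosome 43, Cau.43G0010830 (27418066 to 27441304, minus strand, gene length 1131 bases), was the only called copy of the gene. It had 0.374, 0.270 and 0.321 FPKM in C1, C2 and C3, and 7.11, 9.73 and 10.9 in R1, R2 and R3. Over the groups this was 11 reads in C and 334 in R, 29.1 times as many in R per read counted in genes (exact 95% interval from counting, 16.0 to 58.8). The fitted log2 fold change was -2.94 (SE 0.19, adjusted p = 0.00011 in limma). It passed the minimum for testing through the R libraries alone, so its call carries no weight. It made up 4.96% of the abca4 sum in R. It is matched to the same RefSeq goldfish gene as the chromosome 24 models. A further model on chromosome 2, Cau.02G0005300, had 4 reads in C and 36 in R, below the minimum, and a model on chromosome 32, which the files describe as an ABCA1-like gene, was listed at 0 in every library.

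The gene rbp3 encodes the retinoid carrier of the space between photoreceptors and pigment epithelium. Its only model, Cau.21G0010170 (chromosome 21, 21253724 to 21260868, minus strand), had 80.4, 103 and 138 FPKM in C1, C2 and C3 and 102, 92.2 and 96.0 in R1, R2 and R3. The R libraries lay within the range of the C libraries (log2 fold change 0.12, 95% interval -0.33 to 0.56, adjusted p = 0.707 in limma).

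**Figure D4:**
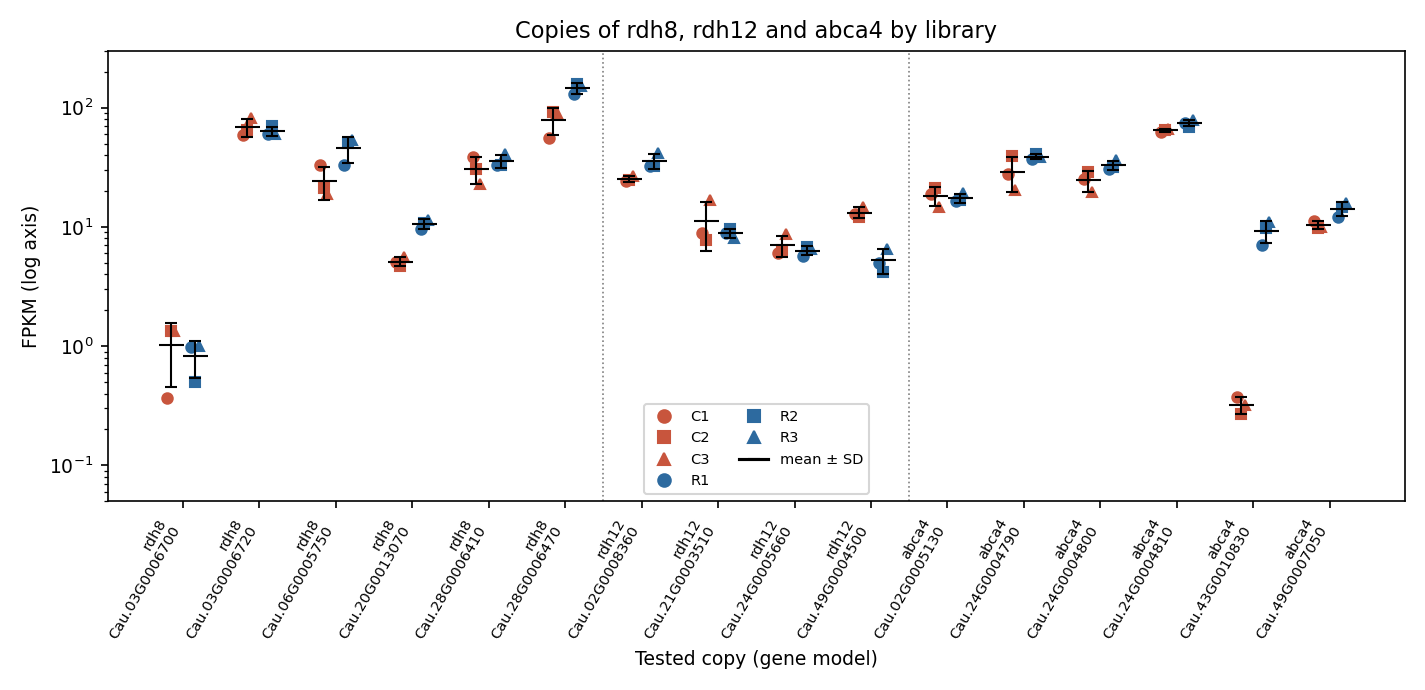
FPKM (log axis) of the tested copies of rdh8, rdh12 and abca4 in each library, with the mean and SD of 3 libraries as black bars. The rdh12 copy on chromosome 49 is higher in every C library. The chromosome 43 copy of abca4 has 7.11 to 10.9 FPKM in R and under 0.4 in C, and it met the minimum for testing through the R libraries alone.

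The photoreceptor step summed to 471, 535 and 557 FPKM in C1, C2 and C3 and to 598, 653 and 676 FPKM in R1, R2 and R3. All C libraries were lower, and rdh8 made the larger part of that gap. Photoreceptor markers went both ways. Their list had models for 27 of its 42 names and summed to 46874 to 62899 FPKM in C and 40913 to 48700 in R. No model carried its cone opsin names (opn1sw1, opn1sw2, opn1mw1, opn1mw2, opn1lw1 and opn1lw2). The names crx, nrl, cnga1 and cnga3 were also among those without a model. Cone opsins are thus not counted in this sum, and rhodopsin is its most abundant model. Of 82 models tested 26 rose and 10 fell in C (43.9% called, median log2 fold change 0.21, against 20.2% and -0.09 over all models). None of the names with a model was at 0. Rhodopsin, the rod pigment, was level at 22317 ± 3251 FPKM in C against 22250 ± 1989 in R. So was a copy of gngt1, a transducin subunit, at 4714 ± 928 FPKM in C against 4774 ± 368 in R. A copy of gnat1, the rod transducin subunit and also among the 3 most abundant markers, was lower in C, at 1358 ± 215 FPKM against 3471 ± 420 in R (log2 fold change -1.36, adjusted p = 0.00186 in limma). The part of these markers in the step's difference was not tested. Per 100 FPKM of these markers the step stood at 0.886 to 1.06 in C and 1.32 to 1.60 in R.

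The ratio of the pigment epithelium to the photoreceptor step was 1.90 in C1, 2.49 in C2 and 3.39 in C3, and 1.87, 1.75 and 1.93 in R1, R2 and R3. C1 lay within the R range and C2 and C3 above it. Markers of Mueller glia, which use rlbp1 and rgr too, summed to 1758 to 2254 FPKM in C and 1537 to 1603 in R. Of their 34 tested models 10 rose and 6 fell (47.1% called, against 20.2% of all models). Lens markers summed to 26208 to 49608 FPKM in C and 61702 to 64644 in R (2 rose and 23 fell of 44, 56.8% called). Leukocyte markers summed to 2823 to 3861 FPKM in C and 2757 to 3225 in R (1 rose and 4 fell of 21, 23.8% called). Their part in these results was not tested.

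**Figure D5:**
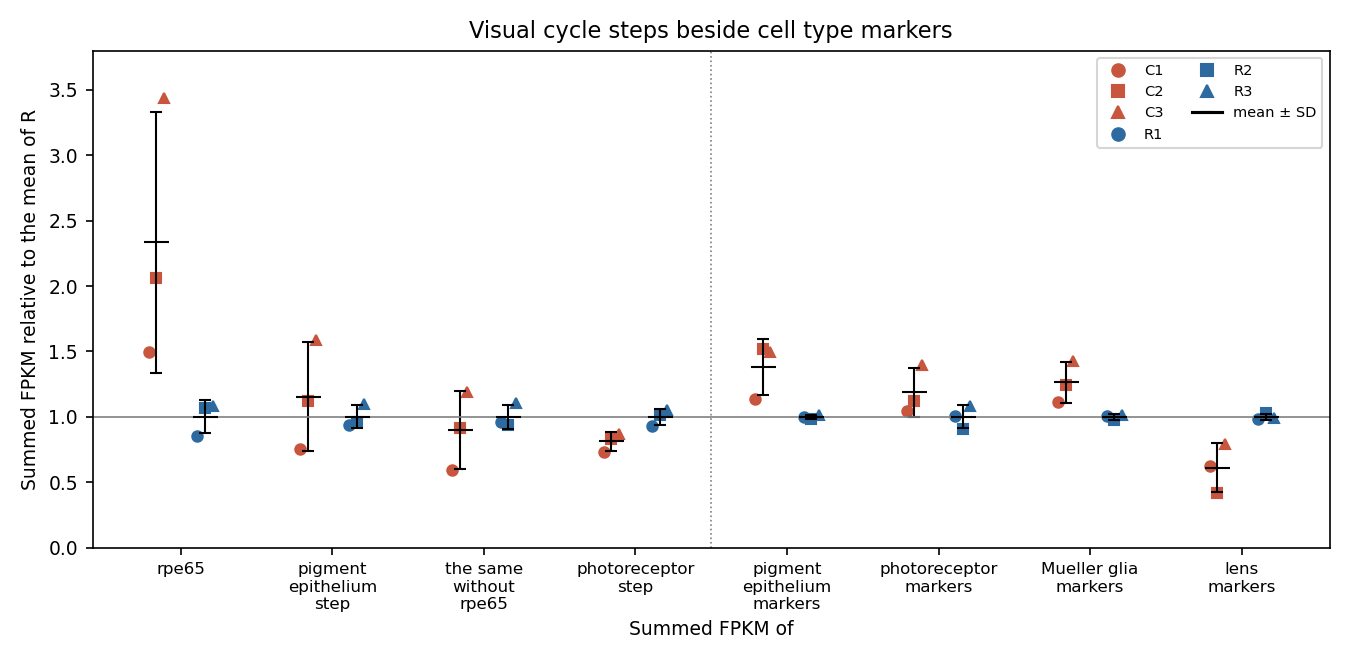
Summed FPKM of rpe65, of the pigment epithelium step with and without rpe65, of the photoreceptor step and of 4 marker lists, each divided by its mean over the R libraries. In C, rpe65 is 1.498 to 3.44 times the R mean, pigment epithelium markers 1.14 to 1.52 times and the photoreceptor step 0.733 to 0.867 times.

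The wider retinoid pathway was covered by a list of 33 other names, of which 23 had models. Of 54 models tested among 77, 7 rose and 6 fell in C (24.1% called, against 20.2% of all models), with a median log2 fold change of 0.23. A copy of crabp1, a carrier of retinoic acid, had 75.4 ± 18.2 FPKM in C against 31.8 ± 6.52 in R (log2 fold change 1.21, SE 0.21).

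Copies of crabp2, another retinoic acid carrier, did not move together. The copy Cau.03G0001190 rose by 0.86 (SE 0.18) on the log2 scale, and Cau.16G0004780 fell by 1.06 (SE 0.16). A further copy, Cau.44G0003130, had 1.90 ± 0.537 FPKM in C and 0.278 ± 0.05 in R. Of dhrs13 on chromosome 40, Cau.40G0007190 rose to 11.4 ± 0.393 FPKM in C from 6.26 ± 0.634 in R, and Cau.40G0006360 had 0.27 ± 0.0691 in C and 2.05 ± 0.4 in R. Both Cau.44G0003130 and Cau.40G0006360 reached the minimum for testing only through the group where they are high, so their calls carry no weight. A copy of dhrs3, which reduces retinal to retinol, fell from 9.62 ± 1.45 FPKM in R to 5.67 ± 0.566 in C. A copy of dgat1, an acyltransferase that can also esterify retinol, had 2.02 ± 0.094 FPKM in R and 0.903 ± 0.152 in C. It too met the minimum only through R, the group where it is high, so its call carries no weight. A model named rdh7 by its best match, Cau.22G0008050, rose to 25.5 ± 8.78 FPKM in C against 8.79 ± 1.73 in R. Leaving out those 3 models, limma adjusted p-values of the other pathway models named here lay between 0.00409 and 0.0188.

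Several members have models on chromosomes whose numbers differ by 25. These were rlbp1 and stra6 (25 and 50), rdh8 (3 and 28), lrat (1 and 26), rdh12 (21 and 46, and 24 and 49) and abca4 (24 and 49). The rdh12 models on 24 and 49 are in different eggNOG groups. In this 50-chromosome table, 76.3% of the 4543 names with exactly 2 models lie 25 apart. Of the members listed only stra6 has exactly 2 models, so that share is no background for the others. For stra6 the chromosome 50 copy made up 18.0% to 28.1% of the pair in C and 18.3% to 22.2% in R. For rlbp1 the chromosome 50 share of all 3 copies was 26.7% to 36.9% in C and 53.5% to 56.5% in R, so it also depends on the reads given to the first chromosome 25 copy. The balance between partner chromosomes thus overlapped between the letters for stra6. For rlbp1 it did not overlap when both chromosome 25 copies were counted. Beside Cau.25G0006790 alone, the chromosome 50 copy was lower in C1 and C2 but higher in C3, as it was in every R library. The rlbp1 result therefore holds only with the first chromosome 25 copy included. The balance also overlapped for abca4, where the chromosome 49 share was 6.86% to 8.84% in C and 7.88% to 9.34% in R. That share adds the 3 chromosome 24 models separately, so it is understated if they are pieces of a single gene. Of the rdh8 pairs, that of Cau.28G0006470 did not overlap, as given above, and that of Cau.28G0006410 did.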

How the data were processed

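Per the file headers, the deposited values are FPKM per gene model for 6 libraries, computed by the authors. The tables of single groups repeat the table of all libraries exactly. The submitters' processing notes list DESeq 1.10.1, TopHat2 2.0.9 and Bowtie 0.12.5 without roles, and a pig genome build that does not match the goldfish identifiers. Not given in the sources used here: the goldfish assembly, the counting tool and the strand setting. Without a strand setting, reads of overlapping antisense models cannot be told apart (the stra6 copy on chromosome 50 and untested copies of lrat, rdh8 and rdh12 have such a neighbour).

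Multiplied by gene length, 100% of the FPKM values were whole numbers of reads to within 0.01, so reads and totals could be recovered. A read total in this range puts 3 reads in a gene of 1 kb at 0.265 to 0.318 FPKM.

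Names came from Swiss-Prot best matches, carried by 43028 of 56251 models, and goldfish symbols from the RefSeq table of assembly ASM336829v1, which held an accession for 33 of the 36 members and a symbol other than a number for 7 of them. Models with at least 1 FPKM in at least 3 libraries were tested on log2(FPKM + 1) in limma 3.58.1 under R 4.3.3. The linear model held the group alone, eBayes used a mean trend and robust fitting, and p-values were adjusted over all models by Benjamini-Hochberg. Sums per name were tested in the same way over all names. This scale understates changes of low genes. The fit was tested on simulated data. Other pseudocounts, filters, scalings, limma-voom on recovered reads, a replicate block and leaving out each library were tried, and reads per summed length per name and the step without rpe65 were added after the data were seen.

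The members and lists were chosen with earlier results of these data known. Every member copy is reported. Other pathway models were named if past an adjusted p of 0.05 (the 10 with the smallest p, of which 1 is not reported here), and marker models by highest mean FPKM.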

Additional observations from a re-analysis of the deposited data

How the results depend on the processing

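The number of called copies was 10, and 6 with the median log2 ratio set to 0. It was 8 to 14 under the other settings with all libraries and 4 to 9 when 1 library was left out. The number of called names was 3, and it lay between 2 and 4 under the other settings and between 0 and 4 when 1 library was left out (0 by limma without R2 or R3, where 4 and 3 names had an unadjusted p under 0.05, and 3 by limma-voom with all libraries). Over the whole table, 6864 of 33907 models were called (20.2%), 3670 of 16850 with a mean of at least 5 FPKM (21.8%), and 3557 to 4520 of 33907 without C1, R1, R2 or R3. For names these were 2413 and 1041 to 1417. With the median ratio set to 0, 3726 models were higher and 3027 lower, against 2939 and 3925. The same setting ended the calls of the 2 falling rlbp1 copies, the rdh8 copy on chromosome 6 and the rdh12 copy on chromosome 2. Without the low-value filter the calls of the last 2 (adjusted p = 0.0618 and 0.0587) and of the chromosome 50 rlbp1 copy (0.0633) also ended, and that rlbp1 call also ended with a pseudocount of 0.1 (0.0512). The first chromosome 25 copy of rlbp1, the rdh12 copy on chromosome 49 and the rdh8 copy on chromosome 20 were called under every setting in which they were tested. So was the abca4 copy on chromosome 43, which met the minimum of the main fit through the R libraries alone. No called copy or name changed direction under any setting tried. Quantile normalization also called the abca4 sum (adjusted p = 0.0125).

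On the log2 scale the pigment epithelium step differed between C and R by 0.21, by -0.09 to 0.44 with 1 library left out, by 0.73 without rlbp1 and rgr, and by -0.15 without rpe65. The photoreceptor step differed by -0.30, by -0.35 to -0.23 with 1 library left out, by -0.46 with quantile normalization and by -0.12 without rdh8, its highest name. The ratio of the steps differed by 0.49, by 0.25 to 0.67 with 1 library left out, by 1.02 without rlbp1 and rgr and by 0.13 without rpe65. The cause was not tested beyond these changes of genes and samples.

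Deviations from the group means correlated at -0.01, 0.10 and 0.04 between libraries with the same replicate number in the titles, and C1 correlated best with R2. With so few libraries, these values cannot settle whether the numbers pair the samples. With the replicate block 11 copies and 3 names were called, without the rdh8 copy on chromosome 6 (adjusted p = 0.0832). With values per summed length lrat fell below the minimum for testing, and with a mean of at least 5 FPKM the abca4 copy on chromosome 43, the lrat copy on chromosome 8, the low rdh8 copy on chromosome 3 and the lrat sum did. Most copies under about 1 FPKM rest on few reads, and their counting intervals are wide.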

Other observations

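The region around the first rlbp1 copy on chromosome 25 holds neighbours in doubled order. Models named aen lie before both rlbp1 copies and models named abhd2b after both. Around the first copy, aen (Cau.25G0006710) had 19 reads over the C libraries and 0 over the R libraries, and an mfge8 model (Cau.25G0006740) likewise had 19 and 0. The others were read in both groups: abhd2b (Cau.25G0006730) had 4 reads in C and 6 in R, a second mfge8 model (Cau.25G0006750) 73 and 28, and an unnamed model before aen (Cau.25G0006700) 9 and 6. Beside the other copy, aen (Cau.25G0006780) was level, with 2.28 to 3.13 FPKM in C and 2.77 to 3.52 in R. There abhd2b (Cau.25G0006800) had 14 reads in C and 30 in R, and an unnamed model before aen (Cau.25G0006770) had 29 and 64. These models were picked after their values were seen, and all are low.

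The pathway column of the files marks 111 models as retinol metabolism, 17 of them members. Of 60 tested, 6 rose and 10 fell in C (26.7% called, median log2 fold change 0.09), where 20.2% of all models were called, 8.67% higher and 11.6% lower, with a median of -0.09. This set was taken after the data were seen.

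No model was named rdh5, the 11-cis retinol dehydrogenase of the pigment epithelium. Models named rdh7 by their best match, 6 in all, summed to 97.9, 147 and 205 FPKM in C1, C2 and C3 and to 58.6, 90.2 and 105 in R1, R2 and R3, so the groups overlapped. Which of them, if any, serves that step is not annotated in the files.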
